A study of Mus musculus with 18 samples.

Results

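The genes described here are *Mmp8*, *Mmp9*, *Mmp25*, *Adam8*, *Mme*, *Hp* and *Itgb2l*, a set of 7 among the 34896 genes of the expression table that encode proteases and other proteins of the neutrophil's gelatinase granules and of its cell surface. They were taken by symbol, for what is known of their products and with earlier results of these data known, so that the counts of members called below are a description. All 7 were found, and 6 of them reached 1 TPM (transcript abundance per transcript length, scaled to the same total in every library) in at least 3 libraries and could be tested. RNA was measured in 9 libraries, with 3 each from granulocyte-monocyte progenitors (GMP), pre-neutrophils (preNeu) and mature neutrophils (matNeu). All were sorted by flow cytometry from bone marrow of adult C57BL/6 mice that were wild type for *Gfi1*. Methods describe marrow pooled from several bones for the GMPs. Chromatin immunoprecipitation followed by sequencing (ChIP-seq) was used for the remodeler CHD4 in wild-type (WT) and *Gfi1*-/- (Gfi1KO) GMPs and for the histone mark H3K4me2 in GMP, preNeu and matNeu cells, with 1 library each, so that no comparison of peaks has a replicate check. The genotype is that of the labels, since a list of peaks cannot show a deletion.

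Neutrophils make their granules in waves as they mature. Primary granules are filled at the promyelocyte stage, secondary granules at the myelocyte and metamyelocyte stage, and the gelatinase or tertiary granules last, in band and segmented cells. Gelatinase granules are released more easily than the other kinds, and their proteases cut collagens and basement membrane as the cell leaves the blood. GFI1 is a DNA-binding repressor that neutrophil formation requires, CHD4 is the ATPase of NuRD, a complex that slides nucleosomes and removes acetyl groups from histones, and H3K4me2 is a mark of promoters and enhancers.

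The labels gave the cell type in 2 places, which differed for all 9 RNA-seq libraries, and the titles were followed because the columns of the table carry them. Summed TPM of GMP markers (*Cd34*, *Kit*, *Mpo*, *Ms4a3*, *Flt3*) ranged from 33400 to 35200 in the GMP libraries, from 4950 to 6640 in the preNeu libraries and from 8.54 to 15.3 in the matNeu libraries. Markers of pre-neutrophils (among them *Ltf*, *Camp* and *Ngp*) summed to 99500 to 124000 in preNeu libraries against at most 3990 elsewhere, and markers of mature neutrophils (among them *Cxcr2* and *Retnlg*) to 26300 to 31200 in matNeu libraries against at most 852 elsewhere. The RNA-seq libraries therefore carried the markers of the cell type in their titles. Of the cells a sort could also hold, monocyte and macrophage markers summed to 2870 to 3490 in GMP libraries and to 1170 to 1520 in matNeu libraries, and eosinophil and basophil markers to 1150 to 1400 and to 40.0 to 53.2. The monocyte and macrophage sum was mostly *Ly6c2* (2962 ± 315 TPM in GMPs, 937 ± 245 TPM in matNeu cells, SD, n = 3 each). The other markers of that list differed: *Cx3cr1* was highest in GMPs, *C1qa*, *C1qb*, *C1qc* and *Vcam1* in preNeu cells, and *Csf1r* and *Adgre1* in matNeu cells. T and NK cell markers summed to 460 to 613 in GMP libraries and to at most 252 elsewhere, B cell markers to at most 141 in any library, megakaryocyte markers to at most 50.2, erythroid markers to at most 33.3 and stromal markers to at most 10.9. Nearly all of the T and NK cell sum in GMPs was *Nkg7* (539 ± 76.8 TPM, SD, n = 3), with *Cd3d* at 2.87 ± 0.489 TPM and *Cd3e* and *Ncr1* at 0. Hepatocyte markers (*Alb*, *Apoa1*, *Ttr*), included because liver is the main source of plasma haptoglobin, were at 0 in GMP and preNeu libraries and at most 0.47 in matNeu libraries. Their part in the results below was not tested. Libraries of the same cell type correlated at 0.96 to 0.971, and each library summed to 1000000 TPM, so that the depth behind the values is unknown.

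Of the members, 6 rose from GMP to preNeu cells, and 5 of these rose again in matNeu cells, the exception being *Itgb2l*, which peaked in preNeu cells and then fell. The 7 genes together took up 0.042 to 0.0562% of all TPM in GMP libraries, 0.414 to 0.456% in preNeu libraries and 1.87 to 2.15% in matNeu libraries. By limma on log2(TPM + 1), with an adjusted p under 0.05 over 13061 genes, 6 of 6 tested members were higher in preNeu than in GMP cells, against 14.7% of all genes higher and 44.3% lower. From preNeu to matNeu cells, 5 members were higher and 1 was lower, against 22.9% and 39.8% of all genes. From GMP to matNeu cells, 6 of 6 were higher, against 22.8% and 54.1% of all genes. The median log2 change of the 6 members was 5.31, 2.52 and 8.39 in these comparisons, beside -0.52, -0.32 and -0.92 over all genes tested. Any 2 of these comparisons share the libraries of 1 cell type. In bulk samples, fewer cells of a type and less RNA per cell cannot be told apart.

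**Figure D1:**
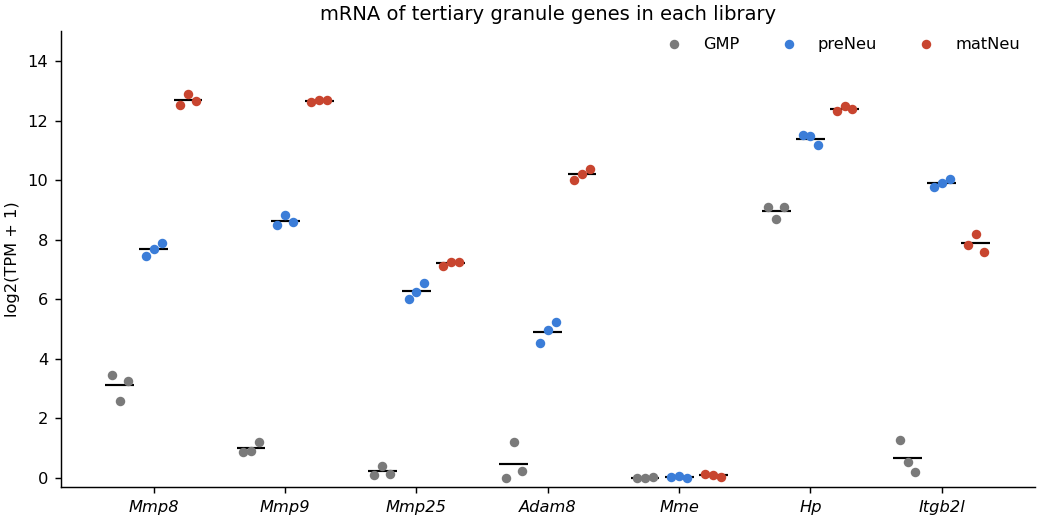
Level of each member as log2(TPM + 1) in the 3 libraries of GMP, preNeu and matNeu cells, one point per library with a bar at the mean. *Mmp8*, *Mmp9*, *Mmp25*, *Adam8* and *Hp* climb from left to right, *Itgb2l* is highest in preNeu cells, and *Mme* stays below 0.1 TPM in every library.

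*Mmp8*, the neutrophil collagenase, which cleaves fibrillar collagens (ENSMUSG00000005800; GRCm38 chr9:7558456-7568485, plus strand), stood at 10.1, 5.07 and 8.57 TPM in the 3 GMP libraries. It stood at 174, 206 and 234 TPM in the preNeu libraries. In the matNeu libraries it reached 5831, 7533 and 6443 TPM. Neither step had overlapping libraries. The means were 7.91 ± 2.58, 205 ± 29.9 and 6602 ± 862 TPM (SD, n = 3 each), a 25.9-fold and then a 32.3-fold difference. On the log2(TPM + 1) scale, the changes were 4.56 (SE 0.21, limma adjusted p = 7.48e-08) and 5.01 (SE 0.21, adjusted p = 1.17e-08). Which step was the larger depended on the scaling, with 5.46 and 4.65 under quantile normalization and 4.99 and 4.80 after leaving out the 50 most abundant genes. The start site of *Mmp8* lies under the strongest CHD4 peak found at any of these genes, and the 200 bases around that peak's summit (chr9:7558214-7558413 of GRCm38, plus strand, upstream of the first exon) are shown for that reason, with capitals for a match to the C/EBP letters TTNNGNAA and then for the GFI1 letters AAATCA.
Mmp8 start site: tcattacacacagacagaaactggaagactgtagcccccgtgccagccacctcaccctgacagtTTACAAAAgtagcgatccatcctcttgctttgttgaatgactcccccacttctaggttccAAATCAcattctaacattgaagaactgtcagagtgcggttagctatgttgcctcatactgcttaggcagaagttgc

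*Mmp9*, gelatinase B, after which the granule is named and which cuts gelatin and type IV collagen (ENSMUSG00000017737; chr2:164940780-164955850, plus strand), was at 0.852, 0.870 and 1.30 TPM in GMP libraries. It was at 359, 459 and 387 TPM in preNeu libraries and at 6334, 6594 and 6688 TPM in matNeu libraries. The 3 cell types did not overlap, and on the log2 scale the first step was the larger. The means were 1.01 ± 0.251, 401 ± 51.6 and 6539 ± 184 TPM (SD, n = 3 each). The log2 changes were 7.65 (SE 0.13, limma adjusted p = 9.12e-11) from GMP to preNeu and 4.03 (SE 0.13, adjusted p = 2.5e-09) from preNeu to matNeu. In matNeu cells the ranges of *Mmp8* and *Mmp9* overlapped, and the genes ranked 10 and 11 of 34896 by mean TPM.

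*Mmp25*, a matrix metalloprotease anchored in the membrane by a lipid tail (ENSMUSG00000023903; chr17:23628311-23645277, minus strand), was at 0.0816, 0.320 and 0.106 TPM in GMP libraries, at 63.8, 75.6 and 93.1 TPM in preNeu libraries and at 139, 153 and 151 TPM in matNeu libraries. On the log2 scale its first step was the larger, and its second step, from 77.5 ± 14.7 to 148 ± 7.66 TPM (SD, n = 3 each), was 1.91-fold. The log2 changes were 6.06 (SE 0.19, limma adjusted p = 3.86e-09) and 0.94 (SE 0.19, adjusted p = 0.00115). Against a minimum log2 change of 1, the second step did not pass (adjusted p = 1).

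*Adam8*, a membrane-bound metalloprotease that sheds surface proteins such as L-selectin (ENSMUSG00000025473; chr7:139978932-139992562, minus strand), was at 0, 1.32 and 0.174 TPM in GMP libraries. It was at 22.2, 30.0 and 36.5 TPM in preNeu libraries and at 1032, 1184 and 1340 TPM in matNeu libraries. The libraries of the 3 cell types overlapped at neither step. After the preNeu stage the mean went from 29.6 ± 7.20 to 1185 ± 154 TPM (SD, n = 3 each), a 40.1-fold difference. The log2 changes were 4.43 (SE 0.30, limma adjusted p = 1.06e-06) and 5.30 (SE 0.30, adjusted p = 9.1e-08), and with a pseudocount of 0.1 TPM the first became the larger (6.42 and 5.34). Because 1 GMP library lists *Adam8* at 0, no fold is given against GMPs. The transcript type beside its row is retained intron, so that the value may be for a part of its transcripts.

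*Mme* encodes neprilysin (CD10), a peptidase that inactivates chemotactic peptides and marks mature human neutrophils (ENSMUSG00000027820; chr3:63241537-63386030, plus strand). Its highest TPM in any library was 0.0967, in a matNeu cell library, and 2 GMP libraries and 1 preNeu library listed it at 0. It did not pass the filter on low values. With no filter, over 20749 genes, its limma adjusted p was 0.86, 0.477 and 0.295 in the 3 comparisons.

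*Hp*, haptoglobin, which binds free hemoglobin and is stored in neutrophil granules besides its secretion by liver (ENSMUSG00000031722; chr8:109575128-109579172, minus strand), was by far the most abundant member in progenitors, at 543, 412 and 551 TPM. The preNeu libraries held 2930, 2843 and 2339 TPM, and the matNeu libraries 5120, 5755 and 5401 TPM. It rose at each step with no overlap of libraries. The means were 502 ± 78.4, 2704 ± 319 and 5425 ± 318 TPM (SD, n = 3 each), or 5.39-fold and then 2.01-fold. The log2 changes were 2.43 (SE 0.14, limma adjusted p = 2.76e-07) and 1.01 (SE 0.14, adjusted p = 6.84e-05), and the second did not pass against a minimum log2 change of 1 (adjusted p = 0.946). The hepatocyte markers named above, near or at 0, stood beside these values.

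*Itgb2l*, an integrin beta subunit related to *Itgb2* (ENSMUSG00000000157; chr16:96422288-96443619, minus strand), ran against the other members. It was at 1.42, 0.458 and 0.141 TPM in GMP libraries. It was at 879, 951 and 1048 TPM in preNeu libraries. In matNeu libraries it was at 228, 293 and 191 TPM, below every preNeu library and above every GMP library. The means were 0.672 ± 0.664, 959 ± 84.6 and 237 ± 51.4 TPM (SD, n = 3 each), so that matNeu cells held 0.247 times the preNeu level. Its log2 change of 9.23 (SE 0.26, limma adjusted p = 1.99e-09) from GMP to preNeu was the largest of the 6 members in that comparison, and it fell by 2.03 (SE 0.26, adjusted p = 4.2e-05) from preNeu to matNeu. The 150 bases upstream of its start (chr16:96443620-96443769, minus strand, RefSeq promoters on GRCm38.p6) are shown because they lie within an open region and the strongest H3K4me2 peak of these genes. Capitals mark the PU.1 letters GAGGAAGT, here as their reverse complement, which 1.63% of 32851 RefSeq promoters hold in the same 150 bases.
Itgb2l promoter: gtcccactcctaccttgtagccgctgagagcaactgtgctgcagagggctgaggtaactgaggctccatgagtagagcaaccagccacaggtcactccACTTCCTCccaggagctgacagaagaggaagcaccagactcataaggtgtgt

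Over the whole path from GMP to matNeu cells, the log2 changes were 9.57 for *Mmp8*, 11.68 for *Mmp9*, 6.995 for *Mmp25*, 9.72 for *Adam8*, 3.44 for *Hp* and 7.21 for *Itgb2l*, with limma adjusted p-values between 3.4e-12 and 3.07e-09. The order of the levels differed between cell types. In GMPs *Hp* was highest and *Mmp8* followed, while *Mmp9*, *Itgb2l*, *Adam8* and *Mmp25* lay at or below 1.42 TPM, and of these only the ranges of *Mmp9* and *Mmp25* did not overlap. In preNeu cells the order was *Hp*, *Itgb2l*, *Mmp9*, *Mmp8*, *Mmp25* and *Adam8*, with no overlap between neighbours. In matNeu cells *Mmp8* and *Mmp9* came first and could not be separated, and *Hp*, *Adam8*, *Itgb2l* and *Mmp25* followed without overlap. TPM is a level per transcript length, so that genes can be set side by side. The place of *Adam8* in these orders is less sure, since its value may be for a part of its transcripts.

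The genes with the most similar profile over the 9 libraries were found by the root mean square (RMS) difference of centred log2(TPM + 1) among 9502 genes that reached a mean of 10 TPM in a cell type. *Mmp8* and *Adam8* were the closest pair of members (0.54), and *Hp* and *Mmp9* the farthest apart (3.41). *Mmp8* was nearest to *Slfn1* (0.362), *Lilr4b* (0.479) and *Cd101* (0.497), and *Adam8* to *Il1f9* (0.43), *Slfn1* (0.461) and *Cd101* (0.569), so that 2 of 3 genes were common to both. *Mmp9* was nearest to *C5ar1* (0.771), the receptor of the complement peptide C5a, then to *Lilr4b* (0.969) and *Il1r2* (1.03). *Mmp25* was nearest to 9830107B12Rik (0.204), *Tinagl1* (0.353) and *Ankrd22* (0.391). *Hp* was nearest to *Pitpnm1* (0.176), *Vasp* (0.21), which promotes actin filament growth, and *Ppp1r18* (0.215). *Itgb2l* was nearest to *Cd177* (0.43) and *Lcn2* (0.491), a surface protein and a siderophore-binding protein of secondary granules, and to *St3gal5* (0.609). These distances describe 9 libraries that share their cell types.

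Other genes of the same families moved both ways. Of all genes tested, 14.7% were higher and 44.3% lower at the first step, from GMP to preNeu cells. These shares were 22.9% and 39.8% at the second step, from preNeu to matNeu cells, and 22.8% and 54.1% from GMP to matNeu cells. Of 23 matrix metalloprotease genes, 9 could be tested, and 6 were higher and 2 lower in matNeu than in GMP cells, with a median log2 change of 2.26. Beside the 3 members these were *Mmp2* (0.912 ± 0.317 to 8.24 ± 1.96 TPM), *Mmp12* and *Mmp27*, while *Mmp19* fell from 16.0 ± 3.30 to 0.911 ± 0.350 TPM and *Mmp28* from 9.29 ± 3.33 to 0.287 ± 0.272 TPM (SD, n = 3 each). From GMP to preNeu cells 4 were higher and 2 lower (median 0.66), and from preNeu to matNeu cells 6 and 2 (median 1.17). Of 9 ADAM genes, 6 were tested, and 2 were higher and 3 lower in matNeu than in GMP cells (median -0.18), 2 and 3 at the first step (median -0.40) and 3 and 2 at the second (median 0.81). Their split from GMP to matNeu cells was near that of all genes and depended on the scaling, as given below. *Adam19*, another shedding protease, went from 0.0704 ± 0.122 TPM in GMPs through 1.26 ± 1.03 to 124 ± 10.6 TPM in matNeu cells (SD, n = 3 each), with a log2 change of 5.88 (SE 0.31, limma adjusted p = 5.82e-08) at the second step. Of the 7 M13 peptidases, the family of *Mme*, only *Ece1* was tested, and it fell by 3.07 (log2) from GMP to preNeu cells, from 15.03 ± 5.11 to 0.896 ± 0.524 TPM.

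Of 6 inhibitors of these proteases, 2 could be tested, and both were higher in preNeu and in matNeu cells than in GMPs (median log2 changes 2.48 and 3.54). *Timp2*, an inhibitor of matrix metalloproteases, went from 0.912 ± 0.188 through 3.14 ± 0.556 to 65.0 ± 15.6 TPM, with a log2 change of 3.97 (SE 0.26, limma adjusted p = 2.41e-07) at the second step. *Reck*, a membrane-anchored inhibitor, was highest in preNeu cells, at 4.07 ± 4.35, 57.0 ± 4.11 and 16.2 ± 7.11 TPM (SD, n = 3 each). In the second step 1 inhibitor was thus higher and 1 lower (median 1.06). *Timp1* and *A2m*, further inhibitors, were listed at 0.

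The beta-2 integrins, the family *Itgb2l* belongs to by sequence, passed the filter in 6 of 6 cases. Of these, 4 were higher in preNeu than in GMP cells (median log2 change 3.43), 4 were higher and 1 lower in matNeu than in preNeu cells (median 0.77), and 6 of 6 were higher in matNeu than in GMP cells (median 5.34). *Itgb2* rose through 45.0 ± 9.66, 1050 ± 79.2 and 1968 ± 97.5 TPM, and *Itgam*, its alpha partner in Mac-1, through 14.6 ± 2.90, 558 ± 76.2 and 858 ± 35.8 TPM (SD, n = 3 each). Mac-1 was part of the gate, since GMPs were sorted as lineage-negative and preNeu and matNeu cells as Mac-1 positive. For the difference of *Itgam* and *Itgb2* from GMPs, selection by the gate and a change between cell types cannot be told apart. *Itgb2l* was the one gene of the family called lower in matNeu than in preNeu cells. The mean of *Itgad* also went down, from 5.74 ± 1.66 to 3.77 ± 2.74 TPM (SD, n = 3 each), without a call (limma adjusted p = 0.216). Among genes of haptoglobin and heme handling, 4 of 5 were tested, with 2 higher and 1 lower at the first step (median 1.26), 2 and 2 at the second (median 0.02) and 2 and 2 overall (median 1.16). *Hmox1*, heme oxygenase, moved with *Hp*, at 11.6 ± 3.04, 91.0 ± 21 and 300 ± 26 TPM (SD, n = 3 each), whereas *Cd163*, the receptor for the haptoglobin-hemoglobin complex, and *Lrp1* were the 2 that were lower in matNeu than in GMP cells, calls that were lost under the median shift and under quantile normalization, where *Cd163* changed sign.

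After the preNeu stage, the 6 genes of the secondary granule list (*Ltf*, *Camp*, *Lcn2*, *Ngp*, *Chil3* and *Cd177*) moved the opposite way from the members other than *Itgb2l*. The members were left off that list whatever other granules hold their products, so that the contrast is one between these lists as drawn. All 6 secondary granule genes were higher in preNeu than in GMP cells (median log2 change 10.82) and all 6 were lower in matNeu than in preNeu cells (median -5.40), while remaining above GMPs (6 of 6, median 6.80). *Ltf*, lactoferrin, fell from 25388 ± 1952 to 467 ± 96.8 TPM (SD, n = 3 each) between preNeu and matNeu cells, a log2 change of -5.78. *Itgb2l* fell by 2.03, close in size to *Lcn2* and *Cd177*, the nearest genes by profile. Of 6 primary granule genes, none was higher at any step, and 5, 5 and 6 were lower (medians -2.34, -7.95 and -10.11). *Mpo*, myeloperoxidase, fell from 32282 ± 996 in GMPs to 5076 ± 873 and 4.05 ± 3.14 TPM (SD, n = 3 each). Of 13 known cargo and membrane proteins of gelatinase granules, a list that holds 3 of the members and shares *Cd177* and *Chil3* with the secondary granule list, 13 were higher at the first step (median 5.17), 6 were higher and 5 lower at the second (median 0.16), and 12 were higher and 1 lower overall (median 5.23). *Slc11a1*, a metal transporter, rose at both steps (2.23 ± 0.598, 15 ± 6.2 and 478 ± 53.3 TPM), *Fcnb*, a ficolin, fell after preNeu cells (37.0 ± 4.50, 3828 ± 266 and 5.90 ± 0.864 TPM), and *Lyz2* was not called at the second step (31557 ± 3589 and 30183 ± 4426 TPM, SD, n = 3 each). Genes for granule products therefore did not share a single course, also within the gelatinase list.

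Of 12 genes for granule exocytosis, 5 were higher and 4 lower at the first step (median 0.25), 7 and 2 at the second (median 0.47) and 9 and 2 overall (median 0.93). *Fgr*, a kinase that signals for degranulation, rose through 0.804 ± 0.152, 243 ± 23.3 and 803 ± 25.3 TPM (SD, n = 3 each). *Snap23*, a fusion protein of the plasma membrane, rose after the preNeu stage, from 62.6 ± 12.7 to 724 ± 33.3 TPM (log2 change 3.53, SE 0.15, limma adjusted p = 1.03e-08). *Stx3*, another fusion protein, fell from 17.9 ± 2.00 to 1.11 ± 0.722 TPM over the whole path.

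**Figure D2:**
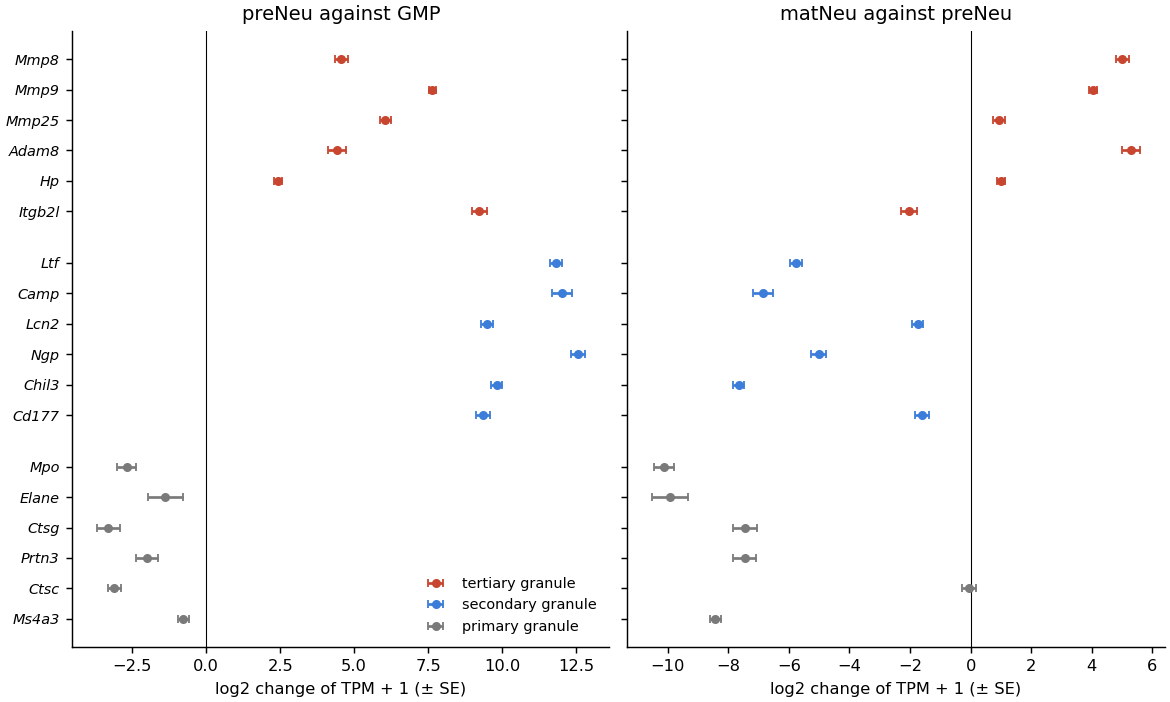
Log2 change of TPM + 1 from GMP to preNeu (left) and from preNeu to matNeu cells (right) for the 6 tested members, labelled tertiary granule, and for 6 secondary and 6 primary granule genes, one point per gene with bars for the limma SE (3 libraries per cell type). That label stands for the set of members as a whole. Only *Mmp9*, *Mmp25* and *Hp* are also on the list of gelatinase granule proteins, and *Mmp8*, *Adam8* and *Itgb2l* are not. On the right the members other than *Itgb2l* lie above 0, the 6 genes listed as secondary granule genes lie below 0 and *Itgb2l* lies with them, at -2.03.

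A few very abundant transcripts can shift all other TPM values. Over all genes, 1925 were higher and 5781 lower in preNeu than in GMP cells, 2995 and 5202 in matNeu than in preNeu cells, and 2976 and 7065 in matNeu than in GMP cells. With libraries shifted to the same median, these became 3828 and 3166, 5530 and 3251, and 6023 and 4063, and the median of all genes moved from -0.52, -0.32 and -0.92 to 0.11, 0.45 and 0.47. With quantile normalization they were 3299 and 3559, 4110 and 4058, and 4991 and 4958. The 6 members kept their direction and their call under that shift, under quantile normalization and after leaving out the 50 most abundant genes. From preNeu to matNeu cells their log2 changes over 19 alternative fits ranged from 4.65 to 5.77 for *Mmp8*, 3.72 to 4.79 for *Mmp9*, 0.73 to 1.70 for *Mmp25*, 4.96 to 6.06 for *Adam8*, 0.57 to 1.77 for *Hp* and -2.37 to -1.27 for *Itgb2l*. The secondary granule calls did not change either. Other lists did change. At the second step the lower calls of *Mmp19*, *Mmp28*, *Cd163* and *Lrp1* were lost under the median shift and under quantile normalization, that of *Reck* was lost under the median shift, and the higher calls of *Itgb2* and *Itgam* were lost under quantile normalization. Within the ADAM family, *Adam10* and *Adam17* turned from lower to higher in matNeu against GMP cells under the median shift. The ADAM counts of that comparison became 5 higher and 0 lower under the median shift and 3 and 0 under quantile normalization. They were 3 and 3 without the 50 most abundant genes. At the first step *Mmp27* became called higher under all 3 scalings. For the exocytosis list, the first step had 8 higher and 1 lower genes under the median shift and under quantile normalization and 8 and 2 without the 50 most abundant genes, and the lower call of *Snap23* at that step was lost under all 3, with its sign changed under the median shift. Under the median shift the second step had 8 higher and 5 lower genes on the gelatinase granule list and 10 and 1 on the exocytosis list, and *Ctsc* among the primary granule genes was then called higher.

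CHD4 occupied 3 of the 7 genes in WT GMPs, and most of its peaks there were at *Mmp8*. Within 10 kb of the genes lay 24 CHD4 peaks, of which 18 were at *Mmp8*, 5 at *Adam8* and 1 at *Mmp25*, and none at *Mmp9*, *Hp*, *Itgb2l* or *Mme*. Of all 21938 protein-coding genes, 32.4% had a CHD4 peak in such a window, so that 3 of 7 is near the background. Among protein-coding genes called higher in matNeu than in GMP cells, 59.2% of 2677 had one, and 69.4% of the 209 with a log2 change of at least 5. *Mmp8* stood apart in the density of its peaks: its 30.03 kb window held 5.99 peaks per 10 kb, and the only other genes as dense were 8 models with provisional Gm names. In number it did not, since 193 protein-coding genes, itself included, had at least as many peaks in their window. Of the 18 peaks, 5 lay at its neighbour *Mmp27*, 1 in the promoter and 4 within the gene. CHD4 covered the start site of *Mmp8* alone, as it did for 4.09% of all genes.

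The peaks at *Mmp8* fell into a few strong and many weak ones. Fold enrichment over the peak caller's background was 49.0 at 142 bases upstream of the start site (rank 320 of 35790), 36.6 at 1998 bases upstream, 26.5 at 9104 bases downstream in the untranslated end of the gene, 21.1 at 2865 bases downstream in an intron and 15.2 at 6272 bases upstream. The other 13 were at 9.83 or less. At *Adam8* the strongest peak had a fold of 23.3 and lay 18099 bases downstream of the start, in an intron of the neighbouring gene 6430531B16Rik. Of the 5 peaks, 2 lay in introns of that gene and 1 in its promoter. The other 4 ranged from 5.27 to 7.44, and the peak at *Mmp25*, 9322 bases upstream, had a fold of 6.52. The median fold of the 24 peaks was 6.83, beside 7.72 over all CHD4 peaks.

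**Figure D3:**
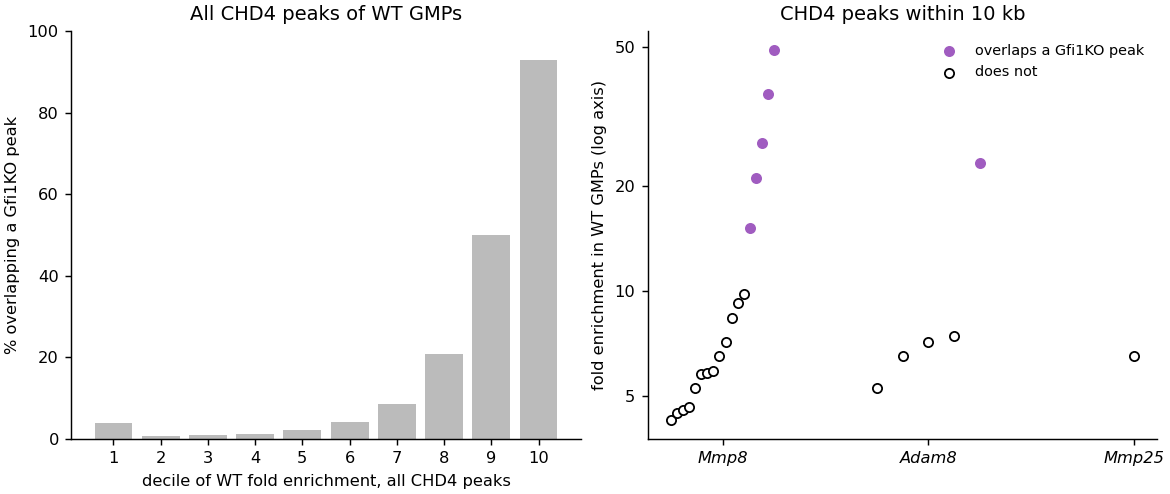
Left, share of all CHD4 peaks of WT GMPs that overlapped a CHD4 peak of *Gfi1*-/- GMPs, in percent, by decile of fold enrichment. Right, fold enrichment (log axis) of the 24 CHD4 peaks at *Mmp8*, *Adam8* and *Mmp25*, one point per peak in order of fold, with the 6 filled points (overlapping a *Gfi1*-/- peak) at 15.2 to 49.0 and the 18 open points at 9.83 or less.

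In *Gfi1*-/- GMPs, 6 of the 24 peaks (25%) overlapped a CHD4 peak by at least 1 bp, beside 18.5% of all 35790 peaks. The list of *Gfi1*-/- GMPs held 7316 peaks, and 10.2% of protein-coding genes had one within 10 kb. Of the 6 kept peaks, 5 were at *Mmp8* and 1 was at *Adam8*. They were the 6 strongest of the 24: the lowest fold of a kept peak was 15.2 and the highest of a lost one 9.83. Over all peaks, the share kept also went with fold, from 0.643% in the second decile to 92.9% in the highest. In that highest decile 4 of 4 member peaks were kept, in the next 2 of 2, beside 49.9% of all peaks, and in the deciles of the other member peaks 0 of 18, beside 1.01 to 8.63%. The kept peaks had lower folds in *Gfi1*-/- GMPs, with 7.27 against 49.0 at the start of *Mmp8*, 11.9 against 36.6 at 1998 bases upstream, 6.94 against 26.5 at the downstream end, 4.51 against 21.1 in the intron, 6.38 against 15.2 at 6272 bases upstream and 7.49 against 23.3 at *Adam8*. Over all 6632 kept peaks, 6539 had a lower fold in *Gfi1*-/- GMPs, with medians of 6.52 and 21.2. A fold of 1 library depends on its depth and background, and genotype and library cannot be told apart.

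Windows of 200 bases at 3 further kept summits are shown, as examples of CHD4 sites at the members that were found in both genotypes. The kept summits of *Mmp8* at 2865 and 9104 bases downstream, whose windows also hold C/EBP letters, are not printed. The first 2 are on the plus strand of GRCm38 at chr9:7556358-7556557 and chr9:7552084-7552283, and the third is on the minus strand at chr7:139974363-139974562. Capitals mark 3 matches to the C/EBP letters in the first, of which TTCCTTAA and TTACCCAA match as reverse complement. In the second they mark the PU.1 letters, as reverse complement, and in the third the AP-1 letters TGANTCA.
Mmp8 1998 bases upstream: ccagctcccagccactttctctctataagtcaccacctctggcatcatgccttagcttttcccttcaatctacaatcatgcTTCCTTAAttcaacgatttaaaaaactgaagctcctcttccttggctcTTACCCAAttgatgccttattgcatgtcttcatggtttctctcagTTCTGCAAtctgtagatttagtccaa
Mmp8 6272 bases upstream: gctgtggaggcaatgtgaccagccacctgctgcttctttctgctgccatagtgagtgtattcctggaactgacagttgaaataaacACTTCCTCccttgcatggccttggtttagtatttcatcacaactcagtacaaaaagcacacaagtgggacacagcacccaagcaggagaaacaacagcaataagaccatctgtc
Adam8 18099 bases downstream: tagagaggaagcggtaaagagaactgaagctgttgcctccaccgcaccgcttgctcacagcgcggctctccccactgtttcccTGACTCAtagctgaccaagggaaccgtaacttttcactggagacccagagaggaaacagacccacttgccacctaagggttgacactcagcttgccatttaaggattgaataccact

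The letters were searched on both strands in the 24 windows of 200 bases at CHD4 summits. C/EBP letters (TTNNGNAA) were in 14 of them (58.3%, Wilson 95% interval 38.8 to 75.5%), beside 52.0% of 35728 windows at all CHD4 peaks. PU.1 letters (GAGGAAGT) were in 1 (background 11.7%), GFI1 letters (AAATCA) in 1 (12.0%), RUNX letters (TGTGGT) in 2 (23.9%) and AP-1 letters in 2 (10.1%). The 1 window with the GFI1 letters was that at the start of *Mmp8*, where they lie 24 bases from the summit. In RefSeq promoters of the members, of which 5 were given (*Mmp8*, *Mmp25*, *Adam8*, *Mme* and *Itgb2l*), the 150 bases upstream held C/EBP and GFI1 letters at *Mmp8* and PU.1 letters at *Itgb2l*, and none of the 5 motifs at *Mmp25*, *Adam8* or *Mme*. Of 32851 promoters, 22.7% held C/EBP letters there, 7.04% GFI1, 8.40% RUNX and 4.24% AP-1 letters. A match of letters is no evidence of a bound factor, and the window size changes these shares.

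H3K4me2 spread over 6 of the 7 genes between GMP and preNeu cells. Within 10 kb the mark formed 16 peaks in GMPs, 16 in preNeu cells and 15 in matNeu cells, but the length they covered went from 14.08 kb to 105.66 kb and 112.36 kb. Over all protein-coding genes, 73.6%, 74.2% and 72.1% had a peak in the window, and the median share of the window covered was 3.83%, 6.43% and 4.81%. The lists also differed as a whole: the highest fold of any peak was 7.97 in GMPs, 120 in preNeu and 65.3 in matNeu cells, and the peaks covered 49.8, 97.9 and 80.4 Mb in all. The part of these differences between libraries in the members' values was not tested. The mark covered the start site of 3 members in GMPs (*Mmp8*, *Mmp25* and *Hp*) and of 6 in preNeu and in matNeu cells, beside 50.9%, 56.2% and 53.9% of all genes.

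At *Mmp8*, H3K4me2 covered 9.53% of the window in GMPs, 78.6% in preNeu and 81.5% in matNeu cells. In preNeu cells a peak of 19.5 kb ran from 3.74 kb upstream to 15.81 kb downstream of the start (rank 67 of 49578 by width), and in matNeu cells one of 25.6 kb (rank 40 of 44094) ran on through *Mmp27* and overlapped 17 of the 18 CHD4 peaks of WT GMPs. At *Mmp9* the shares were 2.78%, 54.6% and 59.0%, with peaks of 16.6 kb and 18.5 kb over the start site in preNeu and matNeu cells. The strongest of the 2 peaks in its GMP window (fold 5.18) lay at the promoter of the neighbour *Slc12a5*, and *Mmp9* itself had no peak over its start there. At *Adam8* the shares were 11.2%, 53.7% and 72.8%, and at *Mmp25* 5.56%, 40.9% and 41.7%. *Hp*, the member with the highest TPM in GMPs, had the highest share there, 18.4%, and went to 91.2% in preNeu and 82.6% in matNeu cells, with 1 peak of 23.6 kb in preNeu cells (rank 34 by width).

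*Itgb2l*, the member whose RNA fell in matNeu cells, had no H3K4me2 peak in GMPs, a share of 18.96% in preNeu cells and a slightly lower one of 17.95% in matNeu cells. Of 5793 protein-coding genes without a GMP peak, 13.5% had one in preNeu cells. Its main peak was 7.12 kb wide with a fold of 17.8 in preNeu cells (rank 105 of 49578 by fold) and 7.42 kb wide with a fold of 12.6 in matNeu cells (rank 607 of 44094), and it covered the promoter printed above in both. *Mme* had no H3K4me2 peak in any of the 3 cell types, as it had almost no TPM.

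**Figure D4:**
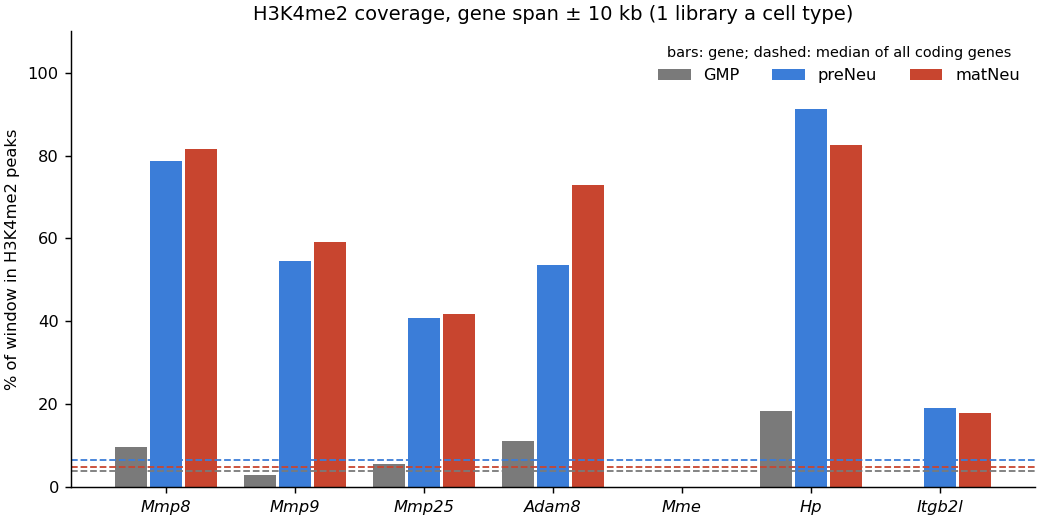
Share of each member's window (gene and 10 kb on either side) covered by H3K4me2 peaks in GMP, preNeu and matNeu cells, in percent, as bars from 1 library each, with dashed lines at the medians over 21938 protein-coding genes. *Hp* and *Mmp8* reach 91.2% and 78.6% in preNeu cells, where the median gene has 6.43%, and *Mme* has no bar.

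In preNeu cells 6 of 7 members had more of their window covered than in GMPs, beside 63.5% of all genes. In matNeu cells 4 of 7 (*Mmp8*, *Mmp9*, *Mmp25* and *Adam8*) had more than in preNeu cells, beside 11.5% of all genes, and *Hp* and *Itgb2l* had less. These 4 are proteases whose RNA also rose at that step, and *Hp* is a gene whose RNA rose while its covered share went down. Of all protein-coding genes, 8 had as much of their window covered as *Hp* in preNeu cells (itself included), 34 as much as *Mmp8*, 281 as much as *Mmp9*, 293 as much as *Adam8*, 859 as much as *Mmp25* and 4428 as much as *Itgb2l*. In matNeu cells these numbers were 15, 18, 122, 29, 594 and 3626. Genes called higher in matNeu than in GMP cells with a log2 change of at least 5 had a median share of 5.42% in GMPs, 27.3% in preNeu and 32.8% in matNeu cells. *Itgb2l* lay below these medians in all 3 cell types.

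ATAC-seq marks accessible chromatin. The lists for preNeu and matNeu cells were identical in all 16307 peaks and served as 1 list whose stage the labels do not settle. The peak names of both lists hold the word Neutrophile. So do all 44094 names of the H3K4me2 list of matNeu cells, and 0 names of the preNeu list. Of all genes, 52.9% had an ATAC-seq peak within 10 kb and 31.7% had one over the start site. Of the members 6 had one, with 18 peaks in all, 7 at *Adam8*, 4 at *Mmp9*, 3 at *Hp*, 2 at *Itgb2l* and 1 each at *Mmp8* and *Mmp25*, and 5 had their start site in one. *Mmp8* was the expressed member without an ATAC-seq peak at its start: its single peak lay 8.93 to 9.15 kb downstream, at the CHD4 peak near the end of the gene, with a fold of 4.54. The strongest peak at the members, with a fold of 7.50 (rank 217), lay 7.49 to 8.01 kb downstream of the start of *Adam8*. Of the 24 CHD4 peaks, 4 overlapped an ATAC-seq peak, 1 at *Mmp8* and 3 at *Adam8*, beside 10.1% of all CHD4 peaks, but the CHD4 peaks were of GMPs and the ATAC-seq peaks of later cells.

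The windows also hold other genes, whose RNA is given because a peak cannot be assigned to one of 2 neighbours. *Mmp27*, 2.91 kb downstream of *Mmp8*, was at 0.244 ± 0.304, 0.958 ± 0.469 and 5.14 ± 1.62 TPM in GMP, preNeu and matNeu cells (SD, n = 3 each), and it was called higher at the second step (limma adjusted p = 0.000961) but not at the first (0.0992), where *Mmp8* was already higher. Under the median shift, under quantile normalization and without the 50 most abundant genes, *Mmp27* was called higher at the first step too. The gene 6430531B16Rik, next to *Adam8*, was at 1.80 ± 1.37, 5.73 ± 1.03 and 21.1 ± 2.66 TPM and was called higher at both steps (limma adjusted p = 0.00589 and 0.00127), while *Tubgcp2* on the other side fell from 34.9 ± 3.97 in preNeu cells to 4.72 ± 2.41 TPM (adjusted p = 8.62e-06). Beside *Hp*, *Txnl4b* rose from 84.3 ± 17.1 to 260 ± 13.2 TPM (limma adjusted p = 5.56e-06) and *Dhx38* from 31.4 ± 5.00 to 80.2 ± 11.7 TPM (adjusted p = 3.43e-05) in the second step, with the H3K4me2 peak of *Hp* running into *Txnl4b*. *Slc12a5*, beside *Mmp9*, stayed at or below 1.59 ± 0.563 TPM on average. *Igsf5* was at 0, 2.04 ± 0.438 and 0.218 ± 0.243 TPM, highest in preNeu cells like *Itgb2l*. These values are of a gene model that ends 0.17 kb from *Itgb2l*. A longer *Igsf5* model, which extends over *Itgb2l* on the opposite strand, has no TPM value.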

How the data were processed

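RNA-seq, ChIP-seq and ATAC-seq values were used as deposited. For RNA-seq the authors deposited a TPM value of every gene in every library, by a computation that is not stated. Methods describe stranded libraries, alignment to mm10, HTSeq and DESeq, and the submitters' processing notes list FastQC 0.11.5, MultiQC 1.6, Trimmomatic 0.36, BWA 0.7.17, MACS2 2.1.0 and kallisto 0.44.0. For each peak, the authors deposited a fold enrichment (a linear ratio), −log10 p- and q-values and a score, which was left aside. ChIP and ATAC-seq depth is unknown.

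Members and gene lists were chosen with earlier results of these data known. The named genes were the 7 members, those of the lists given in the report that carry a value there, the 3 genes nearest to each member by profile, and coding genes within 10 kb. The values of 1 gene of the exocytosis list are not reported here. Samples were grouped by title. No column of the table was left unused (0 columns). The labels do not say that the 3 libraries of a cell type came from separate animals, so p-values measure the spread between these samples.

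A gene was tested if it reached 1 TPM in 3 or more libraries (13061 genes). Values were fitted as log2(TPM + 1) with limma 3.58.1 (R 4.3.3), using 1 model over 9 libraries and a variance trend. Benjamini-Hochberg adjusted p-values were called at 0.05. Fold changes on this scale understate those of low genes. The smallest p of an exact permutation test between groups of 3 is 0.1. The fit was tested on simulated data. Peaks were taken within 10 kb of GENCODE M21 genes on GRCm38 with Python 3.11.15, pandas 2.3.3 and scipy 1.17.1, and counted as kept when they overlapped by at least 1 bp. The start site was the most upstream one of the coding transcripts, and the promoter reached 2 kb before and 500 bp past it. Intervals cover counting error only. The lists for GFI1 and H3K4me3 were not used, since 3105 of 26963 and 2179 of 20218 peaks lie beyond the ends of GRCm38 chromosomes. Plots were drawn with matplotlib 3.10.9.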

Additional observations from a re-analysis of the deposited data

How the results depend on the processing

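The counts of members called (6 higher from GMP to preNeu, 5 higher and 1 lower from preNeu to matNeu, 6 higher from GMP to matNeu) were the same under another pseudocount (0.1), other filters, 3 other scalings, fits of only the cell types compared, no variance trend and without any 1 library (6 to 6, 5 to 5 and 6 to 6 higher, and 0 to 0, 1 to 1 and 0 to 0 lower). Against a minimum log2 change of 1, 3 members were higher from preNeu to matNeu, and the changes of *Mmp25* and *Hp* no longer passed. Adding replicate number as a block changed no call (6, 5 and 6 higher, 0, 1 and 0 lower). Deviations of libraries with the same number correlated at -0.039 to 0.123, so that the numbers were not taken to pair them. Of 342 single-gene values under alternatives, 340 kept their direction and call.

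Peak counts followed the window. Within 2 kb there were 12 CHD4 peaks, 6, 10 and 9 H3K4me2 peaks in GMP, preNeu and matNeu cells and 8.61 and 69.45 kb of H3K4me2 in GMP and preNeu cells. Within 50 kb there were 30, 39 and 33 H3K4me2 peaks and 39.14 kb in GMPs. With a −log10 q of at least 5, 3 H3K4me2 peaks and 3.95 kb remained in GMPs. Kept CHD4 peaks did not move by over 1.5 times under any alternative. In windows of 100 bases, C/EBP letters were in 33.3% (all peaks 31.6%) and RUNX letters in 0.0% (all peaks 13.8%). Depth is unknown for every library, 1 library stands behind each peak list, and the weak GMP mark limits what its absence at *Itgb2l*, *Mme* and the start of *Mmp9* can show.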
